A study of Mus musculus with 42 samples.

Results

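Genes used as markers of macrophages were followed across 21 mouse mammary tumours: C1qa, C1qc, Tyrobp, Fcer1g, Msr1, Mrc1, Cd14, Cd68, Ctss and Lyz2. They were taken by gene symbol from the annotation of the array, where they had 11 of the 22800 probes (2 for Lyz2, 1 for each other gene) and were 10 of the 15096 genes with a probe of their own. Each of the 10 passed the filter on missing values, which 7766 genes passed in all.

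Macrophages take up and digest particles. C1q, a protein of 3 kinds of chain encoded by neighbouring genes, starts the classical complement pathway by binding to antibody or to damaged surfaces, and macrophages make much of it themselves. Tyrobp (DAP12) and Fcer1g (the common Fc receptor gamma chain) are short membrane adaptors that pair with receptors lacking a signalling tail and carry an activation motif, the ITAM. Msr1 is a scavenger receptor for modified lipoproteins, Mrc1 (CD206) a mannose-binding lectin receptor and Cd14 a co-receptor for bacterial lipopolysaccharide. Cd68 is a glycoprotein of late endosomes, Ctss (cathepsin S) a protease of the endolysosome that also trims the invariant chain of MHC class II, and Lyz2 the lysozyme of myeloid cells. None of these genes is confined to macrophages: natural killer cells, mast cells and granulocytes also use Tyrobp, Fcer1g or both.

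All tumours go back to mammary neoplasms of transgenic FVB/N mice, Tg(WapMyc)212Bri, in which the Wap promoter, active in milk-producing epithelium, drives c-Myc. By selection in vivo, 4 lines had been raised from them: glandular, solid/comedo with lung metastases, solid/comedo without them, and spindloid, that is mesenchymal. Which line, host or age a numbered tumour had is not in the labels, so the comparison made here is between the 21 tumours, known by number. RNA of each tumour was hybridised on 2 arrays with the dyes exchanged, against a universal mouse reference RNA, and the values are log2 ratios. In whole tumours, fewer macrophages and less RNA of a gene per macrophage cannot be told apart.

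Of the 22800 probes, between 8600 and 21328 had a value on an array. The deposited ratios were not turned for the dye exchange: raw ratios of the 2 arrays of a tumour correlated between -0.565 and 0.074 over probes, below 0 in 20 of 21 tumours. They were turned here to a single orientation, with the common sign chosen to make Myc, the gene of the transgene, positive in its median. A positive value is therefore read as tumour above reference, a direction that is unsettled as a whole: with the sign turned, every level and every order below is mirrored, while the spreads, tests and likenesses stay as they are. Tumour 656, at 0.074, had 2 arrays that did not oppose each other. Without it 9 of the 10 genes passed the test described below, against 18.7% of all genes, and the lowest tumours of Msr1 and Ctss became 660 (-5.22) and 663 (-2.67). Every p-value rests on repeat hybridisations of the same RNA and says nothing of the spread between animals. A simulated shift of 2 log2 units in 5 of the tumours was recovered by the F test used here for 29 of 100 genes among 7766, and a shift of 1 unit for 1 of 100.

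RefSeq promoter windows ran from 250 bases before to 50 bases after the start of the gene on GRCm38.p6. Cd14 was left out of this search by choice and is not in the counts below. No window was at hand for C1qa, Tyrobp and Msr1. Windows were taken for 6 of the 10 genes (C1qc, Fcer1g, Mrc1, Cd68, Ctss and Lyz2). Each was searched on both strands for GAGGAA, which reads TTCCTC on the other strand and is the core of sites of PU.1, the transcription factor of myeloid cells encoded by Spi1. The motif stood in 4 of these 6 windows and in 28.3% of all 32851 windows of that length. The 4 windows with a match are shown, with the motif in capitals. They are C1qc at chr4:136892865-136893164 (minus strand), Mrc1 at chr2:14229164-14229463 (plus strand), Cd68 at chr11:69666121-69666420 (minus strand) and Ctss at chr3:95526536-95526835 (plus strand), each written from 5′ to 3′ along its gene.
C1qc: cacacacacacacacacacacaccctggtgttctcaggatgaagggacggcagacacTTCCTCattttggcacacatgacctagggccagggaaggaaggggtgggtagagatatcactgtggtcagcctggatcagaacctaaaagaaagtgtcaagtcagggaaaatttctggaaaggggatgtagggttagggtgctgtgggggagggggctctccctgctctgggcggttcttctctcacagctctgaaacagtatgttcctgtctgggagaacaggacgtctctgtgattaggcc
Mrc1: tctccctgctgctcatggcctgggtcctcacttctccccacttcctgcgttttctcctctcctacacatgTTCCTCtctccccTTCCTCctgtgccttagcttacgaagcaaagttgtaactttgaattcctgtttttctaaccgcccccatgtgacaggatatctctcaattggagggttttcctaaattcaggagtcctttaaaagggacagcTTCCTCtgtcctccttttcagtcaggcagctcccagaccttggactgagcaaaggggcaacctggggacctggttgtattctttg
Cd68: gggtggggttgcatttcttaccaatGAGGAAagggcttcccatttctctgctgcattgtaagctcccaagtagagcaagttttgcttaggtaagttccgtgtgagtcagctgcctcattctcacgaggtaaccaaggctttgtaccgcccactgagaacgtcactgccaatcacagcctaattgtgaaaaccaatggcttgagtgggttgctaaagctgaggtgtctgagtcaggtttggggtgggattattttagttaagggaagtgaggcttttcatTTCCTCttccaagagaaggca
Ctss: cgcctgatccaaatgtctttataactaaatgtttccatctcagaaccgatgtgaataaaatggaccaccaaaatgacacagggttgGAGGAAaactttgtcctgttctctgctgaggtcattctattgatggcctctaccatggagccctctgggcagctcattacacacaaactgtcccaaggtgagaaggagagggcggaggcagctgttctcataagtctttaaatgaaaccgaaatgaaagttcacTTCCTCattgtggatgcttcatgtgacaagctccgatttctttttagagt
C1qc held 1 match, Mrc1 held 3, and Cd68 and Ctss held 2 each. A match is a description of these letters and no evidence of binding.

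Of the 10 genes, 9 differed between tumours (with a limma moderated F test over 21 tumours and a Benjamini-Hochberg adjusted p under 0.05 over 7766 genes). Over all tested genes the share was 17.5%, or 1356 genes. The exception was Cd68, with an adjusted p of 0.0693 in limma's test. These genes and the lists below were chosen with earlier results of these data known. A count above the share of all genes is therefore no evidence about them. With the slide run (a stretch of consecutive numbers in the titles of the arrays) as a block in that test (the labels do not say what a run stands for), 2 of the 10 genes passed, Fcer1g (adjusted p = 0.00535) and Msr1 (5.0e-06), against 6.86% of all genes. With the block, C1qa, C1qc, Tyrobp, Mrc1, Cd14, Ctss and Lyz2 were no longer called. For the 17 tumours with both arrays in 1 run, run and tumour cannot be told apart. Tumour 649 had the highest level of 8 of the 10 genes and was among the 5 highest tumours for all 10. Tumours 673, 644, 646 and 647 were among the 5 highest for 9, 8, 8 and 7 genes, and no other tumour was for more than 2. At the other end, tumour 663 had the lowest level of C1qc, Tyrobp and Cd14. These orders are on uncentred arrays, whose medians ran from -1.38 to 1.22 after turning. On arrays centred on their medians, tumour 649 was highest for C1qc, Msr1 and Lyz2. Tumour 646 was then highest for C1qa, Tyrobp, Fcer1g, Mrc1 and Cd68, tumour 641 for Cd14 and tumour 639 for Ctss. The lowest level of Cd14 was then in tumour 667. The standard deviation of tumour means had a median of 1.55 over the 10 genes, against 0.82 over all tested genes.

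**Figure D1:**
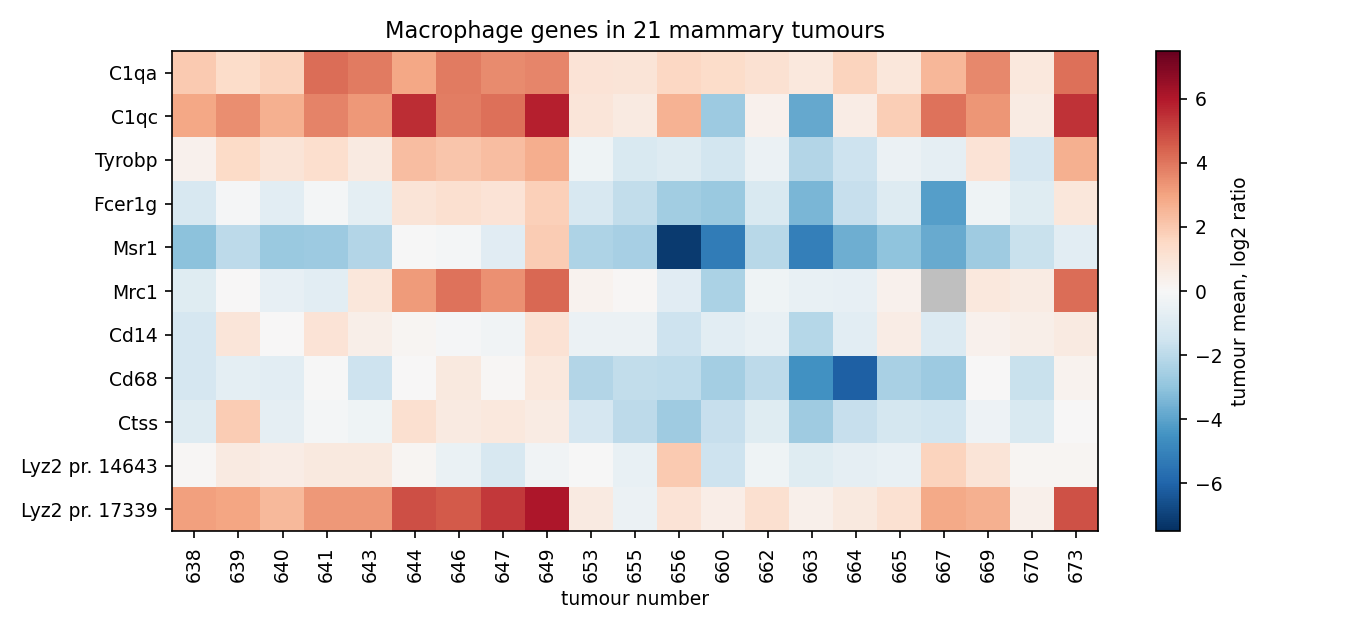
Mean log2 ratio of tumour over reference for the 10 genes (Lyz2 by each of its 2 probes, rows) in 21 tumours (columns, by number). Red is above and blue below the reference, and grey marks Mrc1 in tumour 667, which had no value. The columns of tumours 644, 646, 647, 649 and 673 hold the highest levels of most rows, while for Lyz2 probe 14643 tumours 656 and 667 are highest.

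Both tested chains of the complement protein C1q differed between tumours, with different orders. C1qa was above the reference in 21 of 21 tumours, from 0.81 in tumours 670 and 663 through a median of 1.68 to 4.17 in tumour 641 (limma standard error of a tumour mean 0.66, n = 2 arrays). Tumours 641, 643 and 669, at 4.17, 3.88 and 3.62, stood as high as tumours 646 (3.88), 649 (3.67) and 673 (4.13). The adjusted p of C1qa was 0.0165 by limma's F test (0.134 with the slide run as a block), but none of its 210 tumour pairs passed the joint test of all pairs, in which 1.76% of all gene and tumour pairs passed at an adjusted p under 0.05 and a log2 difference of at least 1. At an unadjusted p under 0.05, 80 of the 210 limma contrasts had such a difference. With the dye orientation as a covariate in limma, 85 of the 190 pairs of tumours with both arrays passed, against 5.94% of all pairs.

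The 2 dye orientations gave different values for C1qa. Its turned ratio was higher on the array of the first orientation than on the other in 18 of 20 tumours, by 1.11 ± 0.78 (SD, n = 20 tumours). Quantile normalisation, under which 13.4% of all genes passed, gave C1qa a limma adjusted p of 0.189.

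C1qc had the widest spread of the set. Its level ran from -3.81 in tumour 663 through a median of 2.91 to 5.80 in tumour 649 (standard error 0.98), and its standard deviation of tumour means, 2.49, was at percentile 99.7 of all tested genes. The 2 lowest tumours, 663 and 660 (-2.72), each rested on 1 array, and both arrays had a value in 15 of the 21 tumours. The next level was 0.34 in tumour 662, a gap of 3.05 that did not pass the limma contrast. Tumours 649, 644 and 673, at 5.80, 5.55 and 5.43, were the highest, with array values of 4.59 and 7.01, 4.64 and 6.47, and 4.77 and 6.08. The gene differed between tumours with a limma adjusted p of 0.0101 (0.2185 with the block), and 14 of 210 pairs passed, 9 of them with tumour 663 as the lower.

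C1qb, the third chain of the complex, whose gene lies next to C1qc, gave values on 29 arrays and in 17 tumours and was too sparse for the test. Its tumour means, from -2.09 in tumour 667 to 2.17 in tumour 669, had a Pearson r of 0.258 with C1qa and 0.077 with C1qc over 17 tumours, against 0.721 between C1qa and C1qc over 21 (16 of them, without the 5 tumours set apart by Mrc1, gave 0.593). The 2 arrays of a tumour were far apart for C1qb, as in tumour 647 with -5.32 and 2.70.

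The signalling adaptors Tyrobp and Fcer1g both differed between tumours, and the same 5 tumours were highest for both. Tyrobp ran from -2.18 in tumour 663 through 0.31 to 2.72 in tumour 649 (standard error 0.72) and was above the reference in 11 of 21 tumours. Tumours 646, 647, 644, 673 and 649 held the 5 highest levels, 2.08 to 2.72, above tumour 639 at 1.46. In tumour 639 the 2 arrays gave 2.94 and -0.02. Tyrobp differed between tumours with a limma adjusted p of 0.00581 (0.181 with the block), and 14 of 210 pairs passed.

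Fcer1g was below the reference in 16 of 21 tumours, from -4.15 in tumour 667 through -0.89 to 1.76 in tumour 649 (standard error 0.55). The 5 tumours above the reference were again 673 (0.87), 644 (0.97), 647 (1.05), 646 (1.18) and 649, and in each of them both arrays were above it. The lowest level, in tumour 667, came from arrays at -5.75 and -2.54. Limma's F test gave Fcer1g an adjusted p of 1.3e-04, and 36 of 210 pairs passed, 14 of them with tumour 667 as the lower and 7 with tumour 649 as the higher. Tumour 667 was thus at the bottom for Fcer1g and among the 5 highest for C1qc, at 4.08, with arrays at 3.03 and 5.13.

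**Figure D2:**
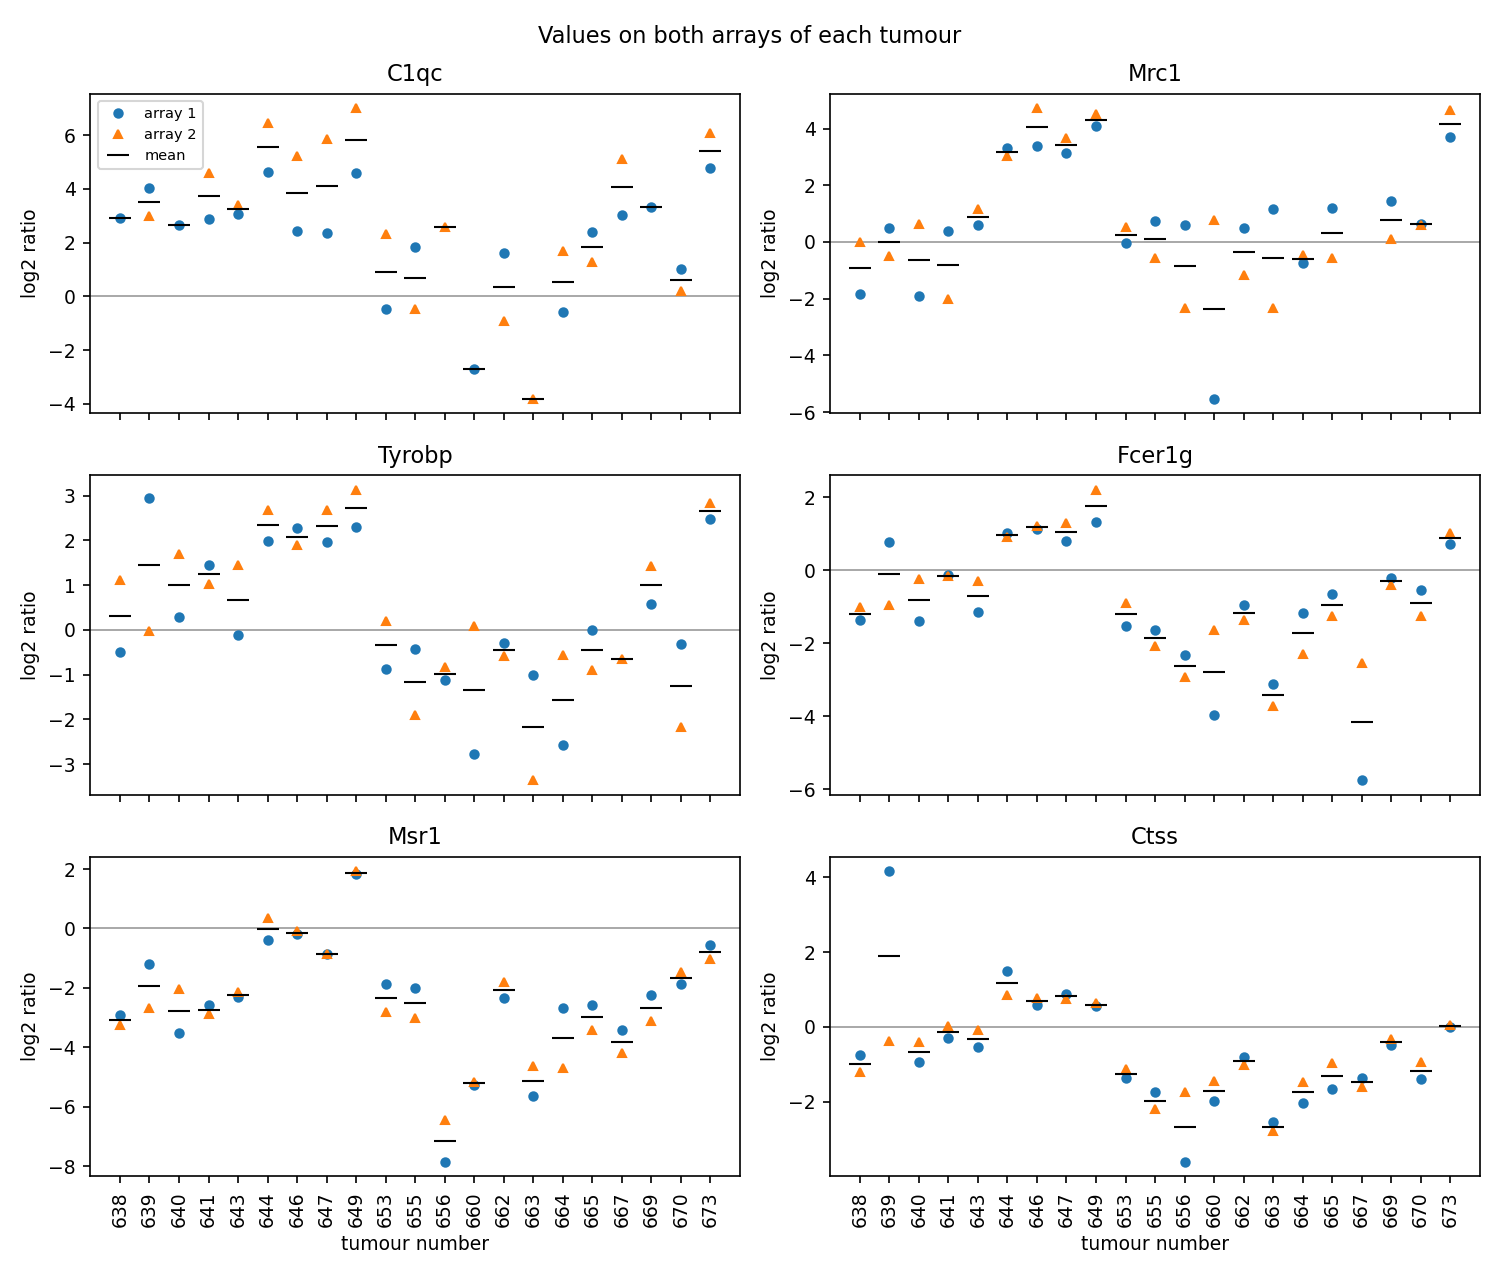
Log2 ratio of tumour over reference on each of the 2 arrays (circles and triangles) and their mean (bar) for C1qc, Mrc1, Tyrobp, Fcer1g, Msr1 and Ctss in 21 tumours, with a separate vertical scale in each panel. The 2 arrays lay close together for Msr1 and mostly for Ctss and far apart for several tumours of C1qc and Mrc1, such as Mrc1 in tumour 660 at -5.52 and 0.77.

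Msr1 was the gene of the set that separated tumours most clearly, with the rank 18 of 7766 by p-value. It ran from -7.15 in tumour 656 through -2.50 to 1.88 in tumour 649 and was above the reference in that tumour alone. The standard error of a tumour mean was 0.46 and the limma adjusted p 2.2e-07. The 2 arrays of tumour 649 gave 1.82 and 1.93, those of tumour 660 gave -5.28 and -5.16, and those of tumour 656, which disagree over all probes, gave -7.85 and -6.45. Of the 210 pairs, 76 passed: tumour 649 was higher than 18 other tumours and tumour 656 lower than 18. Without tumour 656, 63 of 190 pairs passed. After tumour 649 came tumours 644 (-0.01), 646 (-0.14), 673 (-0.78) and 647 (-0.87), and then tumour 670 at -1.66.

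Mrc1 had a step in its levels. Tumours 649, 673, 646, 647 and 644 lay between 3.18 and 4.31, with both arrays at 3.05 or above, and the other 15 measured tumours between -2.38 and 0.87. The gap between tumours 644 and 643 was 2.30, and by itself it did not pass the limma contrast (adjusted p = 0.562). The standard error was 1.01, the median level 0.17, the limma adjusted p 0.0142 (0.0957 with the slide run as a block). The 5 of 190 pairs that passed set each of these 5 tumours against tumour 660, whose arrays gave -5.52 and 0.77. In the 15 lower tumours the 2 arrays often lay on either side of the reference, and raw signs opposed each other in 9 of 20 tumours, against a median of 61.9% of tumours over tested probes. Tumour 667 had no value.

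Cd14 had the narrowest spread, from -2.14 in tumour 663 through -0.09 to 1.08 in tumour 649, with a standard error of 0.44 and a standard deviation of tumour means at percentile 56.2 of all genes. Its 5 highest tumours were 649, 641 (1.04), 639 (0.93), 673 (0.70) and 665 (0.57), so only tumours 649 and 673 of those high for Mrc1 were among them. Cd14 passed limma's F test (adjusted p = 0.0100, and 0.149 with the block) with 11 of 210 pairs. Its adjusted p was 0.0575 when genes with both arrays of at least 2 tumours were tested, a filter under which 4.05% of genes passed; C1qa, at 0.0662, was lost there too.

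Cd68 ran from -6.15 in tumour 664, on 1 array, through -1.55 to 0.79 in tumour 649 (standard error 0.91). The tumours with the highest levels were 649, 646 (0.72), 673 (0.25), 647 (0.10) and 644 (0.05), followed closely by 669 (0.00) and 641 (-0.02). Its ratio was higher on the array of the first orientation in 17 of 17 tumours, by 1.68 ± 0.97 (SD, n = 17 tumours). The limma adjusted p of 0.0693 became 1.1e-04 with the dye orientation as a covariate (42.6% of all genes passed) and 0.0103 with arrays centred on their medians (18.2% passed). It was 0.0163 without the first array of tumour 663, 0.0296 without the second of tumour 660 and 0.0462 without the first of tumour 669.

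Ctss ran from -2.67 in tumours 656 and 663 through -0.90 to 1.90 in tumour 639 (standard error 0.56), with a limma adjusted p of 0.00357 (0.203 with the block) and 18 of 210 pairs. The top level rested on arrays at 4.17 and -0.36 and entered 9 of these pairs. The next tumours were 644 (1.18), 647 (0.82), 646 (0.68), 649 (0.59) and 673 (0.02), the only other ones above the reference. In these 5 the arrays lay close to each other, as in tumour 649 with 0.55 and 0.63. Without the first array of tumour 639 the range of tumour means was 3.85 in place of 4.58, and without its second array it was 6.84.

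The Lyz2 probes disagreed. Probe 17339 ran from -0.46 in tumour 655 through 2.65 to 6.07 in tumour 649 and was above the reference in 20 of 21 tumours, with a limma adjusted p of 7.8e-07 in the fit of single probes, in which 19.2% of 9407 probes passed. Its 5 highest tumours were 649, 647 (5.31), 644 (4.83), 673 (4.77) and 646 (4.63), and the next was 641 at 3.27. Probe 14643 ran from -1.54 in tumour 660 to 1.97 in tumour 656, with a median of 0.10 and an adjusted p of 0.135, and placed tumours 647 (-1.18), 646 (-0.47) and 649 (-0.29) in its lower part. The Pearson r between both probes was 0.101 over 21 tumours, and 0.602 over the 16 tumours other than 644, 646, 647, 649 and 673.

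Lyz1, the neighbouring and nearly identical lysozyme gene, had a probe that followed Lyz2 probe 17339 with a Pearson r of 0.968 (0.911 over the 16 tumours). It ran from 0.04 in tumour 663 to 5.92 in tumour 649 with a limma adjusted p of 4.2e-04. The Lyz1 and Lyz2 signals are uncertain, since a probe may bind the RNA of both genes. With both probes averaged, Lyz2 ran from -0.52 in tumour 655 through 1.58 to 2.89 in tumour 649 (limma adjusted p = 0.00149, and 0.0933 with the block), and 24 of 210 pairs passed.

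**Figure D3:**
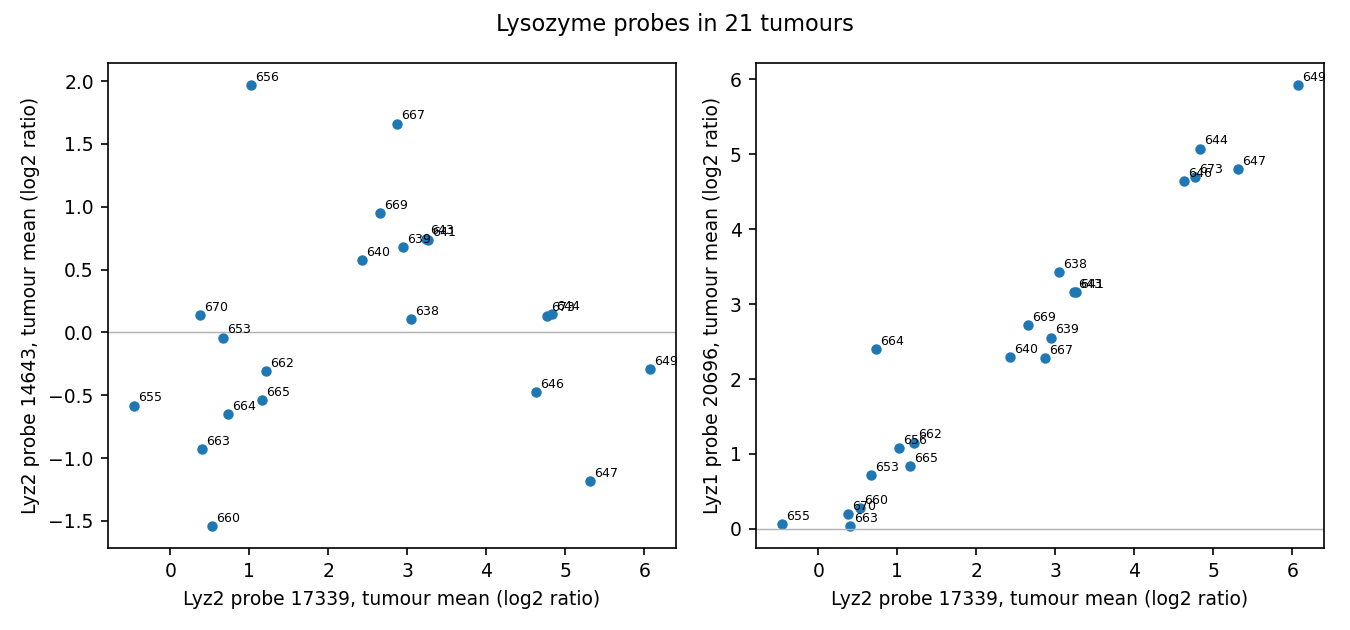
Tumour means (log2 ratio) of Lyz2 probe 17339 on the horizontal axis of both panels, against Lyz2 probe 14643 (left) and the Lyz1 probe (right), with 1 point for each of 21 tumours, labelled by number. The Lyz1 probe rose along with probe 17339 up to tumour 649 at 6.07 and 5.92, while the 5 tumours highest for probe 17339 lay between -1.18 and 0.15 for probe 14643.

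In the order of levels of any single gene, no 2 neighbouring tumours passed the joint limma test, for 199 neighbouring pairs over the 10 genes, and 2 pairs, both of Msr1, had an unadjusted p under 0.05. In all, 204 tumour pairs of the 10 genes passed, of which Msr1 and Fcer1g held 112.

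**Figure D4:**
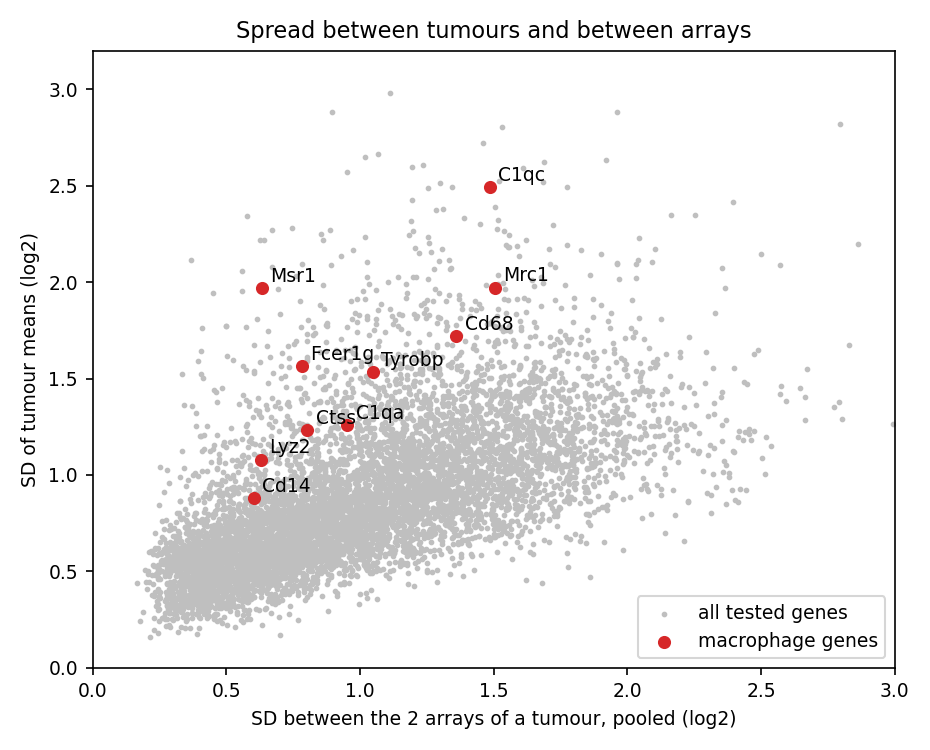
Standard deviation of the tumour means against the pooled standard deviation between the 2 arrays of a tumour, both in log2 units, for all tested genes (grey) and for the 10 macrophage genes (red). Msr1, at 1.97 and 0.63, lay far above genes of its array error, C1qc and Mrc1 combined a wide spread with a large error, and Cd14, at 0.88 and 0.60, lay nearer to the bulk of genes.

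Over the 45 pairs of genes, Pearson r of tumour means had a median of 0.707 (0.457 to 0.917), and over the 16 tumours other than 644, 646, 647, 649 and 673 it was 0.561 (0.125 to 0.869). On arrays centred on their medians, the median over all tumours was 0.664 (0.225 to 0.877). These are descriptions, since the tumours come from shared lines and the 10 values of a tumour share its 2 arrays. C1qc and Lyz2 were the most alike (0.917, and 0.869 over the 16 tumours). Lyz2 is here the mean of its 2 probes, which disagreed with each other (r = 0.101, and 0.602 over the 16 tumours). Within the 16 tumours C1qa and Msr1 were the least alike (0.125), followed by Msr1 and Lyz2 (0.141), and Tyrobp and Ctss had 0.846.

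The tumours 644, 646, 647, 649 and 673, set apart here by their level of Mrc1, also differed in genes of other cells. Their ranges did not overlap those of the other 16 for Tyrobp, Fcer1g, Msr1 and Cd68, and they overlapped for C1qa, C1qc, Cd14, Ctss and Lyz2. Cd68 was parted only by 0.047 in tumour 644, on 1 array, against 0.001 in tumour 669, with arrays at -1.48 and 1.49. The share of all tested genes without such an overlap was not counted, so nothing particular to these genes can be read from this. Vim, the intermediate filament of mesenchymal cells, was between 0.30 and 1.22 in these 5 tumours and between -4.84 and -3.03 in the others. Epcam, an adhesion protein of epithelial cells, was between -3.13 and -0.02 against 1.27 to 3.69, and Myc was between -0.91 and 0.02 against 1.18 to 4.08. Not all of the 10 epithelial markers tested went with Epcam. Krt19, Cldn3, Cldn7, Spint2, Grhl2 and Elf3 were also lowest in 1 of these 5 tumours. Krt8 and Krt18 were lowest in tumour 656 and Cldn4 in tumour 664, and Krt8 was highest in tumour 649 (3.24). Of the 12 mesenchymal and fibroblast markers tested, Thy1 alone was highest outside the 5, in tumour 664. The labels do not say which of the lines these tumours belong to. The part of tumour cell type in the levels of the 10 genes was not tested.

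Markers of other cells were counted in the same fit, in which 17.5% of all tested genes passed. Of the markers of all leukocytes, 6 of 7 tested differed between tumours, and their mean level, from -3.70 in tumour 663 to 1.14 in tumour 649, had a Pearson r of 0.969 with the mean of the standardised macrophage genes (0.942 over 16 tumours). Mesenchymal and fibroblast markers differed for 9 of 12 (r = 0.799, and 0.384 over 16 tumours), and epithelial markers for 6 of 10 (r = -0.244, and 0.723 over 16). Few markers of other immune cells were measured. Counts were 1 of 2 for neutrophils (r = -0.137, and 0.021 over 16 tumours) and 1 of 3 for mast cells (0.580, and 0.895). They were 2 of 4 for dendritic cells (0.697, and 0.687) and 1 of 3 for T and NK cells (0.082, and 0.362). For B and plasma cells 0 of 1 passed, also without adjustment. None of the 5 endothelial markers passed limma's F test, 1 had an unadjusted p under 0.05 and 1 passed on centred arrays. Their r was 0.845, and 0.888 over 16 tumours. Of 4 adipocyte markers 1 passed (r = 0.522, and 0.823 over 16 tumours). Over the 16 tumours, likeness was thus high for markers of several cell types and not particular to leukocytes. The part of these cells in the macrophage genes was not tested.

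Among other genes of the complement system, 4 of the 7 tested of 23 listed differed between tumours, against 17.5% of all genes. Cfp (properdin, which stabilises the alternative pathway convertase) ran from -3.72 in tumour 663 to 3.77 in tumour 649, with a limma adjusted p of 0.0436. Clu (clusterin, an inhibitor of the terminal complex) ran from -1.19 in tumour 663 to 3.89 in tumour 643, and Serping1 (the inhibitor of the C1 proteases) from -0.59 in tumour 656 to 2.27 in tumour 644. C1qbp, a mostly mitochondrial protein that binds C1q, was lowest in tumour 644 (-0.70) and highest in tumour 641 (2.10). Cd55 and C1ra did not pass (adjusted p = 0.974 and 0.630).

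Of the genes of Fc receptors and ITAM signalling, 3 of the 8 tested of 23 listed differed, against 17.5% of all genes. Fcgr2b, the inhibitory IgG receptor, ran from -5.36 (tumour 663) to 2.82 (tumour 644) with an adjusted p of 0.00226, and Sirpa, the receptor for Cd47, from -3.88 in tumour 660 to 2.16 in tumour 649. Vav1, an exchange factor acting below ITAM receptors, had a narrower range, -1.01 in tumour 669 to 1.75 in tumour 670. Ptpn6 and Lat2 did not pass (0.854 and 0.412).

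Scavenger, lectin and lipid receptor genes differed for 6 of the 12 tested of 21 listed, against 17.5% of all genes. Lrp1, a large endocytic receptor, had its lowest level in tumour 656 (-4.82) and its highest in tumour 647 (2.22), with an adjusted p of 6.9e-08, and Axl ran, a receptor kinase for apoptotic cells, from -3.31 in tumour 660 to 1.36 in tumour 649. Colec12, a scavenger collectin, stayed below the reference in every tumour, from -8.37 in tumour 667 to -0.12 in tumour 644. Apoe, a lipid carrier made by macrophages, stayed above it in all, from 1.66 in tumour 670 to 6.69 in tumour 644. Lpl and Gpnmb did not pass (0.814 and 0.596), and Gpnmb was lowest in tumour 647 (-5.82).

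Endolysosomal genes differed for 9 of the 15 tested of 22 listed, the largest count of these lists, against 17.5% of all genes. Lgmn (legumain, which activates cathepsins) ran from -2.82 in tumour 663 to 2.05 in tumour 646, and Ctsc (cathepsin C) from -1.94 in tumour 663 to 2.61 in tumour 649. Lipa, the lysosomal acid lipase, ran from -2.84 in tumour 667 to 1.15 in tumour 640, and Grn, progranulin, from -1.57 in tumour 660 to 1.02 in tumour 649. Psap and Man2b1 did not pass (0.510 and 0.365). The mean of this list had a Pearson r of 0.957 with the macrophage genes (0.919 over 16 tumours).

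Of the lipopolysaccharide and Toll-like receptor genes, 3 of the 9 tested of 20 listed differed, against 17.5% of all genes. Tlr2 ran from -5.01 in tumour 663 to 1.64 in tumour 649, and Lbp, the plasma protein that hands lipopolysaccharide to Cd14, from -3.05 in tumour 667 to 2.97 in tumour 639. Ly96 (MD-2, the partner of Tlr4) was, unlike most of these genes, lowest in tumour 646 (-1.63) and highest in tumour 656 (3.31), with a limma adjusted p of 5.8e-06. Nfkbia and Myd88 did not pass (0.694 and 0.443).

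Genes of macrophage lineage and growth differed for 3 of the 12 tested of 24 listed, a share of 25.0%, against 17.5% of all genes. They were Laptm5, a lysosomal protein of blood cells, from -3.46 in tumour 663 to 1.76 in tumour 649, Csf2ra, the GM-CSF receptor, from -2.40 in tumour 664 to 2.89 in tumour 649, and Ccl2, a monocyte chemokine, from -2.90 in tumour 667 to 1.15 in tumour 649. Folr2 and Cebpb did not pass (0.630 and 0.351). Spi1, named because the PU.1 motif is shown above, ran from -3.53 in tumour 663 to 1.93 in tumour 649 and did not pass either (0.318). Of 2 further macrophage markers, Aif1 was tested and did not pass (0.179), and Adgre1, which encodes F4/80, had too few values for the test. The tested genes of this list did not share a highest tumour. Siglec1 (3.70) and Irf8 (2.58) were highest in tumour 656, and Mpeg1, Aif1, Ccr2 and Folr2 in tumour 669. Cebpb was highest in tumour 641 and Lst1 in tumour 673, and none of these genes passed.

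The genes most like the mean of the 10 standardised genes over 21 tumours were Pla2g7 (Pearson r 0.974), Dpm2 (0.967), Mtch1 (0.966), Phc2 (0.952), Mcl1 (0.948), Bmpr2 (0.948), Rhoc (0.943), Galnt1 (0.942), Bnip2 (0.941) and Nmu (0.939). Over 7756 other tested genes the median was 0.339 and the 95th percentile 0.821. Pla2g7, which encodes a phospholipase that degrades platelet-activating factor, ran from -2.34 in tumour 663 to 3.10 in tumour 644, and its r was 0.958 over the 16 tumours. Mcl1, an inhibitor of apoptosis, ran from -1.90 in tumour 663 to 0.57 in tumour 649. Of these 10 genes, Bmpr2 alone did not pass limma's F test (adjusted p = 0.267). The least alike were Rnu3b4 (-0.820), Rwdd2b (-0.806), Ptcd3 (-0.794), Selenbp2 (-0.791) and Slc39a9 (-0.791). Rwdd2b was lowest in tumour 649 (-0.97) and highest in tumour 660 (3.83).

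The arrays were split here into 3 slide runs by the running numbers in their titles, with 9, 13 and 20 arrays. Both arrays were in 1 run for 17 tumours. Medians of tumour means in runs 1, 2 and 3 were 1.23, -0.98 and 1.12 for Tyrobp, 0.25, -1.98 and -0.23 for Ctss and 1.82, 1.04 and 3.64 for C1qa. None of tumours 644, 646, 647, 649 and 673 had both arrays in run 2. With the run as a block, under which Fcer1g and Msr1 passed limma's F test, 9 of 10 genes had an unadjusted p under 0.05. Of all 7766 genes, 1535 had one too. Within run 3, over 8 tumours, Msr1 (0.00480) and Mrc1 (0.0370, over 7) passed against 1.07% of genes. An unadjusted p under 0.05 was found there for 8 of the 10 genes and for 1154 of all 8821. Within run 2, over 5 tumours, no gene of 7941 passed limma's test, 349 had an unadjusted p under 0.05, and 2 of the 9 macrophage genes tested there (C1qc did not meet the filter), Msr1 and Fcer1g, were among them. For the 17 tumours with both arrays in 1 run, run and tumour cannot be told apart. Only the 4 tumours with arrays in different runs compare runs within a tumour. Their 2 arrays also differ in dye orientation, for which the fit with the block had no term. The part of the run in the levels of these genes was not tested further.

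**Figure D5:**
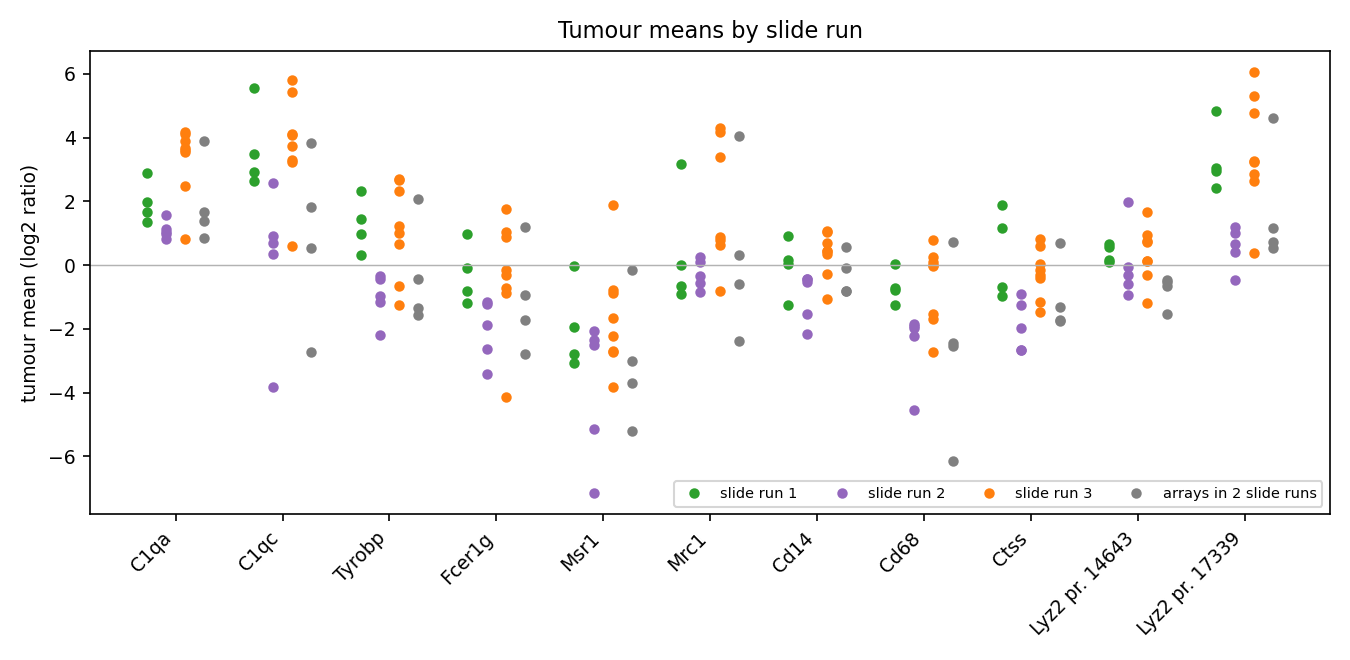
Tumour means (log2 ratio) of each gene, with Lyz2 by probe, for tumours with both arrays in slide run 1 (4 tumours), 2 (5) or 3 (8) and for 4 tumours with arrays in 2 runs. The tumours of run 2 lay in the lower part for most genes, as for Tyrobp at -2.18 to -0.34, while run 3 spanned nearly the whole range of Tyrobp, -1.24 to 2.72.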

How the data were processed

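The authors deposited 42 columns of log2 ratios between dyes, a scale read from the values. For background correction, normalization, image software and the dye of each array, the method is not given in the sources used here. A repeated top value, 16.61 (2.14% of values), was treated as missing, as were blank cells (24.1%). Each tumour's array difference was correlated with those of the others, and its sign on the leading eigenvector gave the orientation (median 0.379 after turning, lowest -0.035). Probes of a gene were averaged, and genes with values on both arrays in 15 tumours or more were tested. Tests used limma 3.58.1 in R 4.3.3 on the deposited scale without centring, with missing arrays dropped gene by gene, a moderated F test over tumours and Benjamini-Hochberg adjustment over 7766 genes. All 210 tumour contrasts were adjusted jointly, and had to reach a log2 difference of 1. The procedure was tested on simulated data, with 0 false calls. The simulated noise was independent between genes and arrays and held no dye, array or slide run effect, so false calls from these are not covered. Of the probes, 16874 had 1 symbol, 134 several and 5792 none, and 16196 matched a current gene entry. The genes and lists were chosen with earlier results of these data known. Named list genes were, per list, up to 4 passing genes with the largest standard deviation and up to 2 others with the largest p; the 10 genes most and 5 least like the set were named too. Alternatives covered scaling, dye, slide run, filters and each array left out.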

Additional observations from a re-analysis of the deposited data

How the results depend on the processing

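The 9 genes that differed between tumours became 2 with the slide run as a block, 0 within run 2 and 2 within run 3. The 28 passing genes of the 6 pathway lists became 15, 0 and 4. At an unadjusted p under 0.05 by limma, these list counts were 25 of 63, 4 of 58 and 30 of 78. Over all genes they were 1535 of 7766, 349 of 7941 and 1154 of 8821. The lists had 18 when genes with both arrays of at least 2 tumours were tested, more genes sharing the adjustment. Tumour pairs of the 10 genes rose from 204 to 504 with dye orientation as a covariate, counted over tumours with both arrays. The median likeness of 0.707 was 0.561 over the 16 tumours not set apart by Mrc1, an alternative chosen after seeing the data. With each array left out in turn, 8 to 10 of the genes and 25 to 35 list genes passed; C1qc then met the filter in 12 of 42 fits, and no other gene that passed was lost. With the overall sign turned, median levels were -1.68 for C1qa, -2.91 for C1qc, -0.31 for Tyrobp, 0.89 for Fcer1g, 2.50 for Msr1, -0.17 for Mrc1, 0.088 for Cd14, 1.55 for Cd68, 0.90 for Ctss and -1.58 for Lyz2. With values at ratios of whole numbers up to 20 treated as missing (34.5% of values, a mark of dim spots), 6 of the 10 genes met the filter and all 6 passed, against 36.3% of 3799 genes. Over single genes and settings other than a left-out array (125 values), 88 calls were kept, 25 lost and 3 gained, and Cd68 stayed uncalled in 9. No paired analysis was possible because the labels number no replicates across tumours. The cause of these changes was not tested.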
